A study of Mus musculus with 11 samples.

Results

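DNA replication factors were followed as 50 genes in mouse embryonic stem cells (ESCs) of the E14 line, of 54838 genes in the count files. The genes were listed by role, as those whose proteins license, open and copy the DNA or supply its nucleotides. All 50 matched a gene in the files, and all 50 passed the filter of more than 1 CPM (reads scaled to a library's total counted reads) in at least 4 libraries, as did 16073 genes in all. ESCs were transfected for 36 h with a control scramble siRNA (3 libraries), CMTR1 siRNA 1 (4 libraries) or CMTR1 siRNA 2 (4 libraries). CMTR1 is the methyltransferase that adds a methyl group to the ribose of the first transcribed nucleotide of capped RNA, and the siRNA libraries were made to ask how the transcriptome responds to its repression. All cells were of 1 line, grown with LIF on gelatin without a differentiation signal. The libraries of a group are labelled as separate samples, but the labels do not say whether each came from its own culture. The study's methods give fewer biological replicates than there are libraries for each CMTR1 siRNA, so some libraries may not be independent, and p-values measure only the spread between libraries.

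DNA replication begins when the origin recognition complex (ORC) binds DNA and, with CDC6 and CDT1, loads the ring-shaped MCM2-7 helicase, a step known as licensing that geminin blocks by binding CDT1. In S phase the kinase CDC7-DBF4 and the loading factors turn the ring into an active helicase with CDC45 and GINS, primase and polymerase alpha start each strand, and polymerases delta and epsilon extend it while held by the PCNA clamp, which the RFC complex loads. Most of these genes are transcribed in a wave before S phase under E2F factors, and ESCs, which spend much of their cycle in S phase, express them strongly.

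E2F binding sequences in the promoters are shown first, since they are the DNA element these genes are best known to share. The 8-base E2F words, TTTCCCGC, TTTGGCGC, TTTCGCGC and TTTGCCGC, were searched on both strands of the RefSeq promoter windows (250 bases before to 50 bases after a start, GRCm38.p6), which held 42 of the 50 genes. The words can overlap each other on opposite strands, as they do in Mcm5 and Mcm6. At least 1 word was present for 15 of the 42 genes (35.7%), and for 2.6% of 27025 genes in the same table. Words were found for 4 of 5 MCM genes, 2 of 2 licensing genes, 4 of 7 polymerase genes and 2 of 6 ORC genes, and for 0 of 5 nucleotide supply genes. The CCAAT word, also on both strands, was present for 57.1% of the 42 genes and 41.1% of all genes. One stretch is given for each of 8 genes, on the gene's own strand, 5′ to 3′, with the word in capitals. They were chosen because Cdt1 and Mcm5 carried a tested difference and the others belong to the same licensing, helicase or clamp loader steps.
Cdt1: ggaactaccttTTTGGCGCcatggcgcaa
Mcm5: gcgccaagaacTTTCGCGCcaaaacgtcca
Mcm3: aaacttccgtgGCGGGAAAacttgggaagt
Mcm6: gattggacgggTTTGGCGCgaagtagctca
Mcm7: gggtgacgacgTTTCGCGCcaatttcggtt
Cdc6: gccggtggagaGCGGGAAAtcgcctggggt
Orc1: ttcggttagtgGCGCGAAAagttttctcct
Rfc3: acgtcgcacgcTTTCGCGCtcgcgggaaaa
The Cdt1 stretch is chr8:122568036-122568064 (plus strand) and that of Mcm5 chr8:75109345-75109374 (plus strand). Those of Mcm3, Mcm6 and Mcm7 are chr1:20820275-20820304, chr1:128359734-128359763 and chr5:138171849-138171878, all on the minus strand. Those of Cdc6, Orc1 and Rfc3 are chr11:98908002-98908031 (plus), chr4:108579416-108579445 (plus) and chr5:151651200-151651229 (minus). The Rfc1 window held none of the 4 words. A word is a match of letters and was not tested as a bound site.

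In control ESCs the MCM2-7 genes were the most strongly expressed group. Levels of different genes were compared as CPM per kilobase of exon, with all annotated exons of a gene merged. Merged exons can be longer than the RNA that is made, so levels and ranks depend in part on the annotation. On this scale Mcm3 stood at 115.5 ± 1.55 and Mcm5 at 115 ± 4.48 (mean ± SD, n = 3), a difference within their spread. Pcna, the clamp, was at 102 ± 3.07, Rrm2, a subunit of the reductase that makes deoxyribonucleotides, at 101 ± 8.31 and Mcm7 at 99.6 ± 0.19, again within their spread. Mcm4, Mcm2 and Mcm6 followed at 85.4, 76.5 and 64.6, so that all 6 helicase subunits lay among the 8 highest of the 50 genes. The level of Mcm3 was above that of 98.2% of the genes tested.

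Loading and accessory factors were lower. Gins3 was the lowest of the 50 genes at 6.06 ± 0.40 CPM per kilobase, above 56.1% of the genes tested, and Pole2, Prim2 and Orc4 lay at 9.00, 9.61 and 9.64. Partners in 1 complex therefore differed several-fold on this scale. Gins4 was at 38.0 and Gins3 at 6.06, Rfc5 was at 36.2 and Rfc3 at 13.7, and Orc2 was at 34.6 and Orc4 at 9.64. Without division by exon length, control means were 51.3 and 16.4 CPM for Gins4 and Gins3 and 168.8 and 49.3 for Rfc5 and Rfc3. Those of Orc2 and Orc4 were 133.5 and 71.9 CPM, so the size of such differences depends on the length used. The order of levels across the roles is shown in the plot of control libraries.

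**Figure D1:**
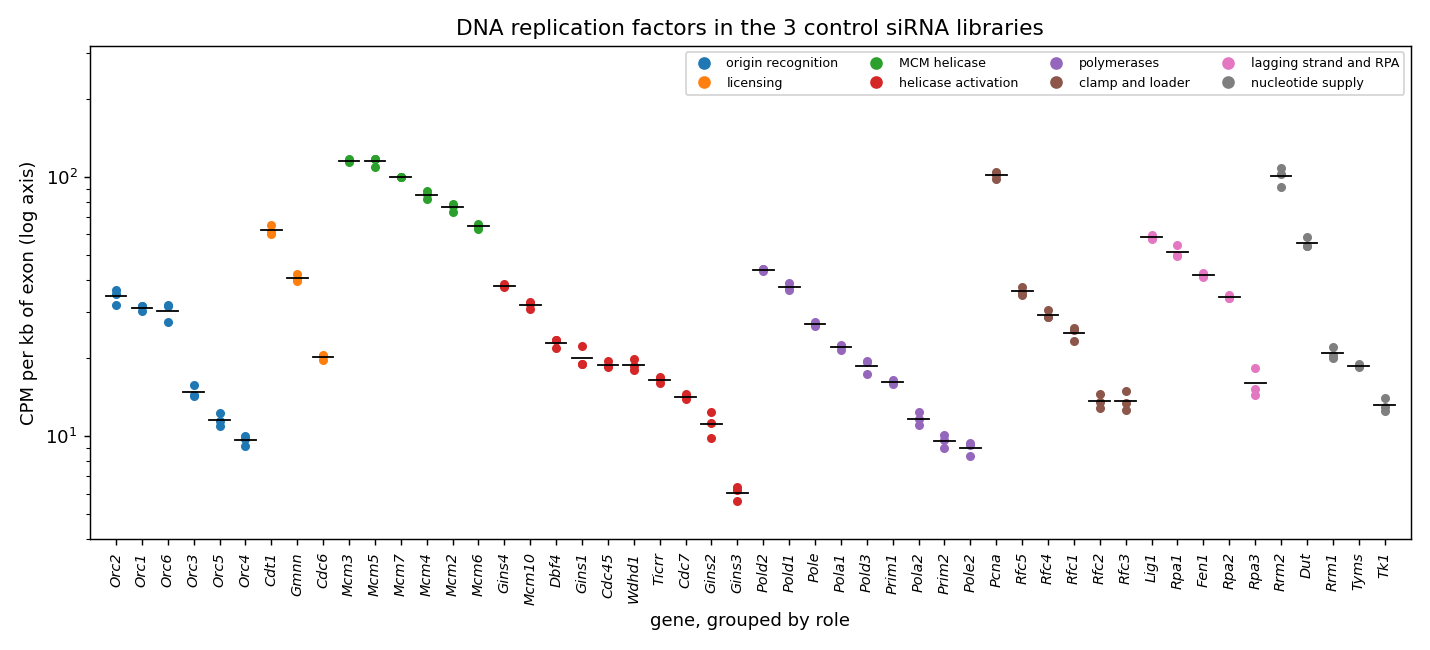
Level of each of the 50 genes in the 3 control siRNA libraries, as CPM per kilobase of exon on a log axis, grouped by role and ordered by level within it. Points are libraries and bars are means, and the 6 MCM genes, Pcna and Rrm2 lie highest, from 64.6 to 115.5.

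The spread between libraries of a group was small for most of these genes. Counted reads ran from 6738478 to 8382318 per library, and single genes of the list had between 103 and 4687 reads in a library. The coefficient of variation between libraries of a group had a median of 4.49% (1.92% to 11.7%), against 3.5% from counting alone. Cmtr1 RNA itself did not check the labels. It was 17.9 to 21.7 CPM in control, 16.2 to 21.3 with siRNA 1 and 15.6 to 19.5 with siRNA 2, with log2 fold changes of -0.09 (SE 0.11, edgeR adjusted p = 0.743) and -0.25 (SE 0.11, adjusted p = 0.144), and 36.3% of its exon length lies under the overlapping models Gm28043 and Gm28052 on the same strand. Groups are therefore named below as the libraries were labelled. Defining ESC markers were present in every library (Pou5f1 at 419 to 507 CPM), and the summed CPM of 8 ESC markers was 1920 to 2020 in control, 1640 to 1810 with siRNA 1 and 1730 to 1810 with siRNA 2. The summed CPM of 4 neural markers was 101 to 108, 116 to 136 and 115 to 138, and that of 6 fibroblast markers 23.3 to 27.8, 24.8 to 28.5 and 34.2 to 39.1, with the fibroblast gene Lum at 0 in 8 libraries. Sums of 3 mesoderm and 5 primitive endoderm markers overlapped between all 3 groups. Single markers did not all follow their sum. Nes was higher with both siRNAs (69.2 to 92.3 CPM, 57.1 to 64.5 in control). Pax6 with siRNA 2 was lower, at 7.41 to 9.23 CPM (9.4 to 12.3 in control), and Sox1 with siRNA 2 overlapped control. With siRNA 2, Col3a1 was lower, at 0.247 to 0.852 CPM (1.21 to 2.16 in control), and Pou5f1, Dppa5a, Tdgf1 and Utf1 overlapped control. With siRNA 1, Sox2, Utf1 and Sox1 overlapped control, and Tdgf1 and Esrrb reached the lowest control values, 270 and 130 CPM. Nanog and Zfp42 were lower with both siRNAs, Nanog at 47.3 to 69.7 CPM (76.3 to 92.3 in control).

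After CMTR1 siRNA the replication genes stayed close to their control levels, with few exceptions. Of the 50 genes, 1 passed the test with siRNA 1 (Rfc1, higher) and 2 passed with siRNA 2 (Rfc1, higher, and Cdt1, lower), by edgeR's quasi-likelihood test with Benjamini-Hochberg adjusted p at most 0.05 over all 16073 genes. Among all genes tested the share that passed was 4.67% with siRNA 1 (2.71% higher, 1.97% lower) and 9.72% with siRNA 2 (6.17% higher, 3.55% lower), so the 50 genes did not pass more often than genes at large. With the mean of both siRNAs, Rfc1 alone passed, where 6.91% of all genes did. Unadjusted p was under 0.05 for 4 genes with siRNA 1 and 10 with siRNA 2, where 16.8% and 23.2% of all genes had such a p. With siRNA 2 the count was 4 with TMM factors, which added Gmnn and Mcm5, and 5 with DESeq2, which added Mcm3, Mcm5 and Mcm7. The shares of all genes above are for edgeR on total counts. They were not computed for these settings, so the higher counts cannot be set beside them.

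The size of the differences was bounded for every gene. The median log2 fold change of the 50 genes was -0.011 with siRNA 1 and -0.021 with siRNA 2, beside 0.024 and 0.029 for all genes tested. With 1 library left out it ran from -0.022 to 0.0091 and from -0.045 to -0.0040. Values below 0 were seen for 26 and 30 of the 50 genes, and for 43.2% and 42.9% of all genes. The median absolute log2 fold change was 0.053 and 0.078, beside 0.109 and 0.125 for all genes. All genes include those just above 1 CPM, while the 50 genes had mean counts of 130.7 to 4109 reads. Genes of like depth were not compared, so the lower medians cannot be read as a trait of replication genes. The 95% interval lay within 0.2 of 0 on the log2 scale for 40 genes with siRNA 1 and 30 with siRNA 2, within 0.3 for 47 and 47, and within 1.5-fold for all 50 with either siRNA. The libraries of siRNA 1 did not overlap those of control for 8 of the 50 genes (15.5% of all genes), and those of siRNA 2 for 10 (19.4% of all genes). These are bulk values, in which fewer cells in S phase and less of a transcript per cell cannot be told apart.

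**Figure D2:**
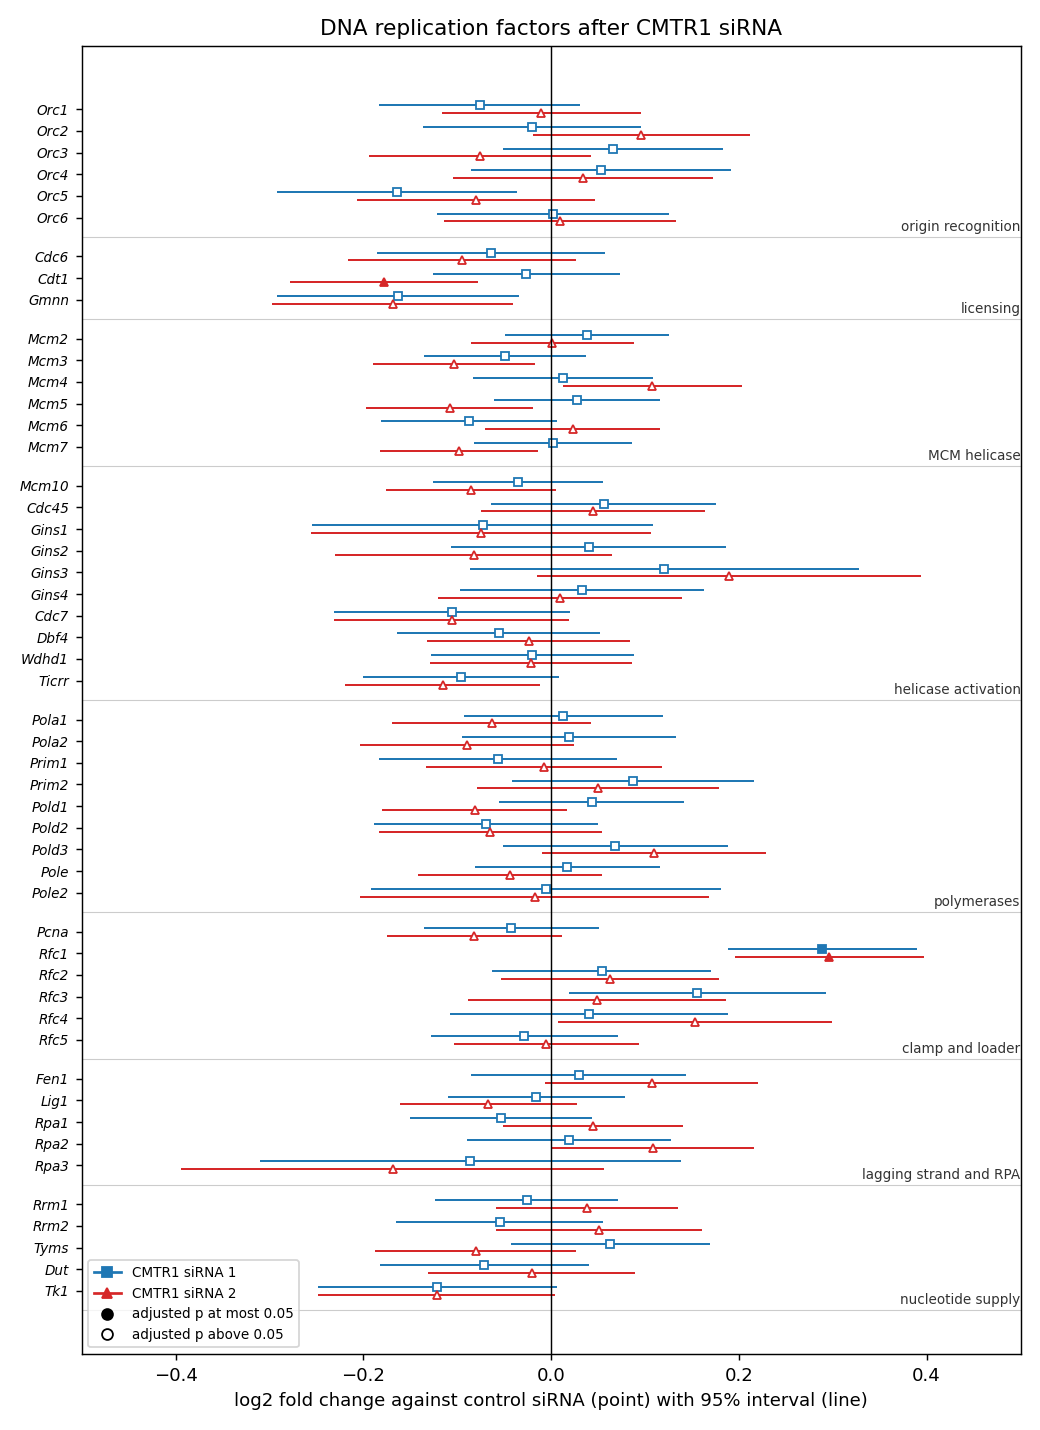
Log2 fold change of the 50 genes against control siRNA, with 95% intervals, for CMTR1 siRNA 1 (blue squares) and siRNA 2 (red triangles). Filled symbols mark an adjusted p of at most 0.05, which Rfc1 reached with both siRNAs, at 0.29 and 0.30, and Cdt1 with siRNA 2, at -0.18, while all other intervals stayed within 1.5-fold of control.

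The clamp loader held the clearest difference. Rfc1, the large subunit that opens PCNA and sets it around DNA at a primer end (ENSMUSG00000029191, GRCm38 chromosome 5, 65261850 to 65335670, minus strand), was at 157, 154 and 141 CPM in control. It was at 174, 188, 189 and 185 CPM with siRNA 1 and at 183, 189, 182 and 186 CPM with siRNA 2. All 8 CMTR1 siRNA libraries lay above all 3 control libraries. Rfc1 rose by 0.29 on the log2 scale with siRNA 1 (SE 0.050, edgeR adjusted p = 0.00014), or 22.2%, and by 0.30 with siRNA 2 (SE 0.049, adjusted p = 5.06e-05), or 22.8%. The difference between the siRNAs was 0.01 (95% interval -0.08 to 0.10). Rfc1 passed the test in every alternative run, at log2 fold changes of 0.24 to 0.33. Its exons overlap no other gene model in the annotation. The ESC and neural marker sums given above also separated these 8 libraries from control, though single markers did not all follow them. The part of these sums in the Rfc1 difference was not tested.

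The partners of Rfc1 did not pass the test. Rfc2, Rfc4 and Rfc5 are small subunits of the same ring, as is Rfc3, and each stayed within 0.30 of control by its 95% interval with either siRNA. Rfc3 was at 48.5, 53.8 and 45.6 CPM in control, 52.1, 55.6, 54.2 and 58.0 with siRNA 1 and at 51.6, 53.3, 49.1 and 50.3 with siRNA 2, so that the groups overlapped. Its log2 fold change was 0.16 with siRNA 1 (edgeR adjusted p = 0.207) and 0.05 with siRNA 2 (adjusted p = 0.722). Rfc4 gave 0.04 and 0.15 (adjusted p = 0.842 and 0.184), and its siRNA 2 libraries, at 47.1 to 54.6 CPM, lay just above the control libraries at 44.2 to 47.0. Rfc5, of which 10.7% of the exon length overlaps Wsb2 on the other strand, gave -0.03 and -0.01, and Rfc2 gave 0.05 and 0.06. Pcna gave -0.04 and -0.08 (adjusted p = 0.706 and 0.280), with 13.9% of its 75-base words shared with the pseudogene Pcna-ps2.

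**Figure D3:**
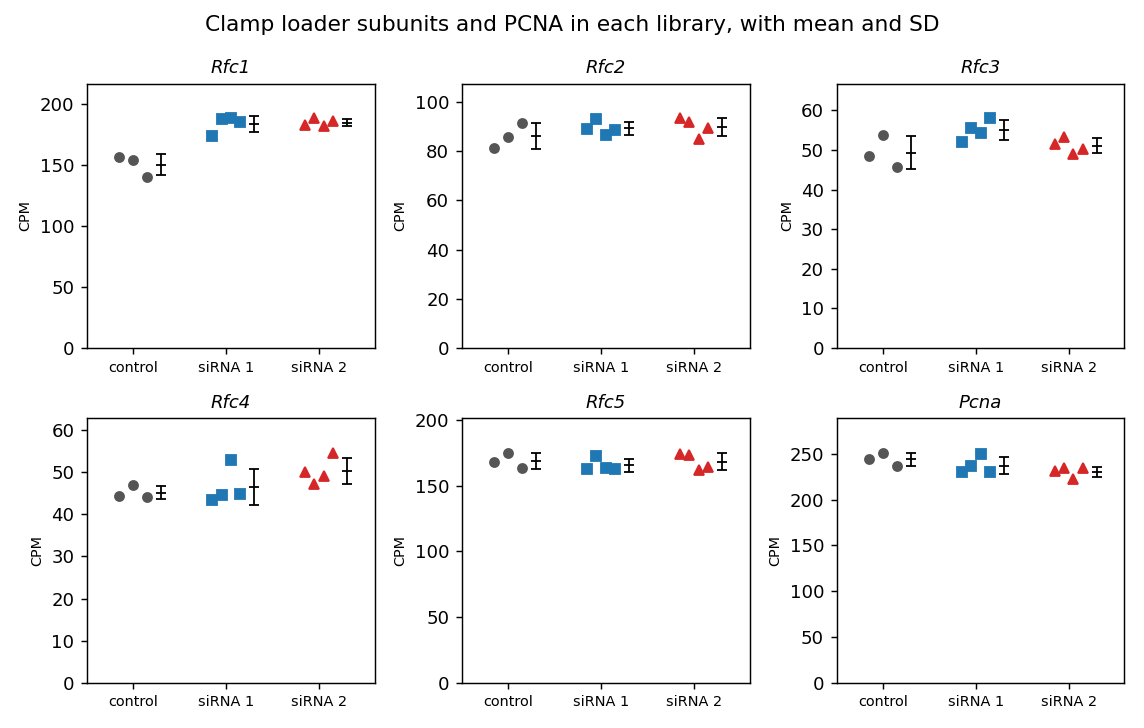
CPM of the 5 clamp loader subunits and Pcna in each library, with mean and SD beside the points (control n = 3, each siRNA n = 4) and axes from 0. Only in the Rfc1 panel do all siRNA libraries lie above all control libraries, at 174 to 189 against 141 to 157 CPM.

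All 3 licensing genes had log2 fold changes below 0 with both siRNAs, and 1 of the 3 passed the test, with siRNA 2. Cdt1, the helicase loading factor (ENSMUSG00000006585, GRCm38 chromosome 8, 122568015 to 122573554, plus strand), was at 189, 192 and 205 CPM in control and at 199, 187, 191 and 189.8 CPM with siRNA 1. With siRNA 2 it was at 181, 179.8, 166 and 164 CPM, below every control and siRNA 1 library. Cdt1 fell by 0.18 on the log2 scale with siRNA 2 (SE 0.049, edgeR adjusted p = 0.0143), and its value with siRNA 1 was -0.03 (95% interval -0.13 to 0.07). The direct test of siRNA 2 against siRNA 1 gave -0.15 (SE 0.046, adjusted p = 0.0323). The call against control was lost without control replicate 3 (adjusted p = 0.136) and without siRNA 2 replicate 4 (0.0518), at log2 fold changes of -0.14 and -0.15. The fibroblast marker sum, at 34.2 to 39.1 CPM, set the same 4 siRNA 2 libraries apart, and its part in the Cdt1 difference was not tested.

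Gmnn, which encodes geminin, the inhibitor of CDT1, had a like value with both siRNAs. It was at 59.0, 61.8 and 58.3 CPM in control, 51.8, 52.1, 55.1 and 54.4 with siRNA 1 and at 55.5, 55.1, 49.5 and 52.4 with siRNA 2. The 8 siRNA libraries all lay below the 3 control libraries. Its log2 fold change was -0.16 with siRNA 1 (SE 0.063, edgeR adjusted p = 0.145) and -0.17 with siRNA 2 (SE 0.063, adjusted p = 0.0826), and -0.17 for the mean of both (adjusted p = 0.0606), none of which passed. It passed for the mean of both with TMM factors (adjusted p = 0.0306) and with a filter at 5 CPM (0.0464). Cdc6, the ATPase that joins ORC, gave -0.06 and -0.09 (adjusted p = 0.650 and 0.350).

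The 6 subunits of the MCM2-7 helicase took values on both sides of 0 with siRNA 2. Against control, Mcm3, Mcm5 and Mcm7 gave log2 fold changes of -0.10, -0.11 and -0.10 (edgeR adjusted p = 0.118, 0.112 and 0.133), Mcm4 gave 0.11 (adjusted p = 0.145), and Mcm2 and Mcm6 gave 0.001 and 0.02, which turned below 0 with TMM factors and DESeq2. No MCM gene passed with edgeR on total counts, though 4 of the 6 had an unadjusted p under 0.05, as did 23.2% of all genes. Of these 4, Mcm3, Mcm5 and Mcm7 were lower and Mcm4 was higher. Mcm5 passed with TMM factors (-0.13, edgeR adjusted p = 0.0490) and without siRNA 2 replicate 2 (adjusted p = 0.0400). With DESeq2, Mcm3, Mcm5 and Mcm7 passed at -0.13, -0.14 and -0.13, and Mcm4 did not, at 0.08. The share of all genes that passed with TMM factors or DESeq2 was not computed. With siRNA 1 the 6 genes ran from -0.09 (Mcm6) to 0.04 (Mcm2), with unadjusted p under 0.05 for 0 of 6, and DESeq2 called none.

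Mcm5 was the only MCM gene that passed the test between the siRNAs. It was at 437, 469.7 and 467 CPM in control and 468, 478, 465 and 456 with siRNA 1, and at 418, 451, 417 and 413 with siRNA 2. The siRNA 2 libraries lay below all siRNA 1 libraries and overlapped those of control, where replicate 1 was low. Mcm5 (ENSMUSG00000005410, GRCm38 chromosome 8, 75109569 to 75128439, plus strand) was lower by a log2 fold change of -0.14 with siRNA 2 than with siRNA 1 (SE 0.040, edgeR adjusted p = 0.0296). Mcm7 gave -0.10 in the same comparison (edgeR adjusted p = 0.105), and its siRNA 2 libraries also lay below all siRNA 1 libraries. Across the 50 genes, 2 passed in this comparison, both lower with siRNA 2 (Cdt1 and Mcm5), where 7.44% of all genes passed and 2.96% did so in that direction. Each of the 2 calls was lost without any 1 of 5 libraries. These were siRNA 1 replicates 1, 2 and 4 and siRNA 2 replicates 3 and 4 for Cdt1 (adjusted p = 0.0552 to 0.118), and siRNA 1 replicates 1 and 2 and siRNA 2 replicates 1, 3 and 4 for Mcm5 (adjusted p = 0.0505 to 0.113).

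Mcm6 stood in the opposite order. It was at 295, 307 and 302 CPM in control, 279.9, 284, 291 and 279.5 with siRNA 1 and at 318, 319, 281 and 307 with siRNA 2. Its siRNA 1 libraries lay below control, at -0.09 (adjusted p = 0.333), and the value of siRNA 2 against siRNA 1 was 0.11 (adjusted p = 0.106). Mcm4 was at 294, 317 and 309 CPM in control and at 330.3, 351, 315 and 324 with siRNA 2, where replicate 3 lay within the control range. Of the exon length of Mcm7, 12.6% overlaps other genes on either strand, and 9.49% of its words are shared.

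**Figure D4:**
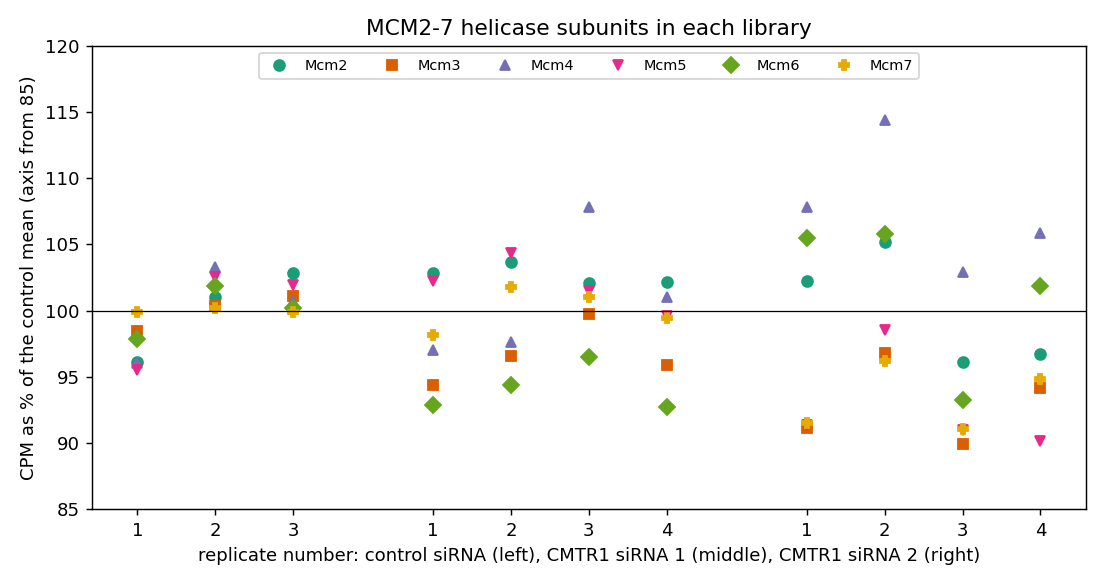
CPM of the 6 MCM genes in each library as a percentage of the gene's control mean, with the axis from 85 to 120. With siRNA 2, Mcm3, Mcm5 and Mcm7 lie below 100 in all 4 libraries and Mcm4 lies above 100 in all 4.

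The MCM genes also moved together from library to library within a group. After removal of group means, the correlation of log2 CPM between 2 MCM genes over the 11 libraries had a median of 0.568 over 15 pairs. The median was 0.176 over all 1225 pairs of the 50 genes. It was 0.421 among ORC genes, 0.402 among clamp and loader genes, 0.2 to 0.237 in 4 other roles and -0.03 among the polymerase genes. Counting noise, which differs with a gene's reads, was not removed. These points share their library, its scaling and its depth, and are given as a description. Summed over the 6 genes, siRNA 2 replicate 3 was lowest at 2316 CPM and siRNA 2 replicate 2 highest at 2524 CPM, and the control libraries lay between, at 2405 to 2508 CPM.

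ORC, which marks the origins, also stayed near control. Of 6 ORC genes, 1 had an unadjusted p under 0.05 with siRNA 1 and 0 with siRNA 2, and neither edgeR nor DESeq2 called any. Orc5, an ATPase-fold subunit, was at 76.1, 70.4 and 67.7 CPM in control, 60.6, 62.3, 67.0 and 65.0 with siRNA 1 and at 63.1, 65.7, 72.7 and 68.8 with siRNA 2. Its siRNA 1 libraries lay just below control, at -0.16 (SE 0.063, edgeR adjusted p = 0.136), and its siRNA 2 value was -0.08. Orc2 was at 136, 141 and 123 CPM in control, 127, 124, 142 and 135 with siRNA 1 and at 150.4, 141, 131 and 149 with siRNA 2, an overlap in each comparison, and 29.8% of its exon length overlaps Nif3l1 on the other strand. Its values were -0.02 and 0.10 (adjusted p = 0.906 and 0.311).

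Among the 10 helicase activation genes, 0 had an unadjusted p under 0.05 with siRNA 1 and 1 with siRNA 2, and neither edgeR nor DESeq2 called any. That 1 was Ticrr, also known as treslin, which helps bring CDC45 to the helicase. It was at 160.7, 166 and 169.6 CPM in control, 149, 151, 158 and 160.7 with siRNA 1 and at 145, 144, 162 and 160.0 with siRNA 2. The siRNA 1 libraries all lay below the lowest control library, the highest of them by less than the rounding used here. Those of siRNA 2 exceeded the lowest control library in replicate 3. Its log2 fold changes were -0.10 and -0.12 (edgeR adjusted p = 0.342 and 0.154). Cdc7, the kinase that acts on MCM, gave -0.11 with both siRNAs (adjusted p = 0.399 and 0.302), and Cdc45 gave 0.06 and 0.05 (adjusted p = 0.699 and 0.706). Gins3, the weakest expressed, gave 0.12 and 0.19 with wide intervals (siRNA 2, -0.01 to 0.39). Of the exon length of Gins2, 67.3% overlaps Gse1 on the other strand, so its reads, which enter the counts given here, depend on the strand setting.

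The 9 polymerase and primase genes stayed near control. With siRNA 1 they ran from -0.07 (Pold2) to 0.09 (Prim2), and with siRNA 2 from -0.09 (Pola2) to 0.11 (Pold3), with unadjusted p under 0.05 for 0 of 9 with either siRNA and no call by edgeR or DESeq2. Prim2, the large primase subunit, was at 59.9, 57.6 and 53.6 CPM in control, 59.95, 64.8, 59.3 and 58.3 with siRNA 1 and at 57.0, 60.5, 59.3 and 59.4 with siRNA 2. Pold3, an accessory subunit of polymerase delta, was at 89.4, 88.6 and 79.7 CPM in control, 92.3, 85.7, 94.3 and 88.4 with siRNA 1 and at 92.2, 86.3, 96.9 and 95.8 with siRNA 2. The groups overlapped for all 9 genes against control. The bound farthest from 0 with siRNA 2 was 0.23, for Pold3, and the widest interval was that of Pole2, from -0.20 to 0.17.

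Lagging-strand and single-strand binding genes, and those of nucleotide supply, gave no call by edgeR or DESeq2 with either siRNA, and 1 of these 10 genes, Rpa2, had an unadjusted p under 0.05, with siRNA 2. Rpa2, a subunit of the single-strand binding complex RPA, was at 102.5, 102 and 105 CPM in control, 105, 104, 106 and 103 with siRNA 1 and at 118, 111, 105 and 111 with siRNA 2. Its siRNA 2 libraries lay just above control, at 0.11 (edgeR adjusted p = 0.203). Rpa1, the large RPA subunit, was at 275, 304 and 278 CPM in control, 258, 274, 294 and 276 with siRNA 1 and at 298, 302, 287 and 292 with siRNA 2, all overlapping. Rpa3, the smallest subunit and the gene with the fewest reads here, gave -0.09 and -0.17 with the widest intervals of the list (siRNA 2, -0.39 to 0.06). Tk1, the thymidine kinase of the salvage pathway, was at 67.2, 73.0 and 65.1 CPM in control, 62.2, 65.7, 65.5 and 58.4 with siRNA 1 and at 61.2, 66.3, 62.3 and 61.7 with siRNA 2. It gave -0.12 with both siRNAs (adjusted p = 0.320 and 0.230). Of the exon length of Fen1, the flap nuclease, 84.2% overlaps other genes on the other strand, so its reads depend on how strand was treated in counting.

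Few genes of the wider replication machinery passed the test. Of 37 other replication genes, 0 passed with siRNA 1 (4.67% of all genes), where 5 had an unadjusted p under 0.05 (16.8% of all genes) and DESeq2 called 0. With siRNA 2, 1 passed (9.72% of all genes), and 11 had such a p (23.2% of all genes). That was Pole3, a histone-fold subunit of polymerase epsilon, which was at 35.7, 36.4 and 33.1 CPM in control, 34.9, 40.8, 39.2 and 40.2 with siRNA 1 and at 42.5, 40.8, 39.9 and 41.1 with siRNA 2. Pole3 rose by 0.23 on the log2 scale with siRNA 2 (SE 0.073, edgeR adjusted p = 0.0404), a call lost with DESeq2 (0.169), TMM factors (0.0730), the replicate block (0.0663), no filter (0.0762) and without any of the 3 control libraries or siRNA 2 replicates 1, 2 or 4 (0.0617 to 0.195). TMM factors and DESeq2 each called 3 other genes of this list with siRNA 2, Dna2, Chaf1a and Chaf1b, in its place.

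Between the siRNAs, 4 of these 37 genes passed, where 7.44% of all genes did. Asf1a, a histone chaperone, was at 43.0, 44.7, 43.6 and 49.5 CPM with siRNA 1 and at 50.6, 54.4, 55.9 and 56.8 with siRNA 2 (52.4, 49.1 and 41.1 in control), a difference of 0.27 (SE 0.068, edgeR adjusted p = 0.00949). Of the exon length of Asf1a, 48.1% overlaps Mcm9 on the other strand, so its reads too depend on the strand setting. Samhd1, which degrades deoxyribonucleotides, was at 50.7, 53.8, 53.9 and 57.5 CPM with siRNA 1 and at 68.3, 63.6, 56.9 and 66.2 with siRNA 2 (60.3, 62.4 and 62.6 in control), a difference of 0.24 (adjusted p = 0.0104, and 0.0583 without siRNA 2 replicate 1). Tipin, a fork protection factor, was higher by 0.17 (adjusted p = 0.0393), which was lost with DESeq2 and without any of siRNA 1 replicates 1, 2 and 4 or siRNA 2 replicates 1, 2 and 4 (0.0725 to 0.149). Dctpp1, a nucleotide hydrolase, had a log2 difference of -0.19 (adjusted p = 0.0341), which was lost with DESeq2 and without siRNA 1 replicates 1 or 2 or siRNA 2 replicate 3 (0.0874 to 0.172).

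Among the factors that control the S-phase wave, most genes did not pass the test (17 of 18 with siRNA 1 and 15 of 18 with siRNA 2). Of 18 such genes, 1 passed with siRNA 1 (Rb1, higher) and 3 with siRNA 2 (E2f6 and Ccna2, higher, and E2f1, lower), beside 4.67% and 9.72% of all genes. With the mean of both siRNAs, 3 passed (E2f6 and Rb1, higher, and E2f1, lower), beside 6.91% of all genes. For that mean DESeq2 called E2f1 alone, exactTest E2f1 and Rb1, and 0 passed without control replicate 3. E2f1, an activator of replication genes, was at 41.5, 50.8 and 46.7 CPM in control, 42.4, 42.6, 36.6 and 40.4 with siRNA 1 and at 39.1, 40.4, 34.7 and 38.7 with siRNA 2. Its siRNA 2 libraries lay below control and its siRNA 1 libraries overlapped it. E2f1 fell by 0.28 on the log2 scale with siRNA 2 (SE 0.076, edgeR adjusted p = 0.0135), a call lost without control replicate 2 (0.164) or 3 (0.0549), and gave -0.20 with siRNA 1 (adjusted p = 0.141). E2f2 had the lowest siRNA 2 value of the 18 genes, -0.285, with libraries that did not overlap control. It passed only with TMM factors.

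E2f6 encodes an E2F that represses transcription. It was at 40.9, 41.3 and 39.0 CPM in control, 41.4, 41.6, 44.6 and 43.6 with siRNA 1 and at 56.4, 58.0, 49.1 and 48.3 with siRNA 2. It rose by 0.39 with siRNA 2 (SE 0.072, edgeR adjusted p = 0.000231), and siRNA 2 exceeded siRNA 1 by 0.31 (adjusted p = 0.002). Rb1, which encodes the retinoblastoma protein that holds E2F activators in check, was at 26.8, 27.0 and 23.7 CPM in control, 31.0 to 35.0 with siRNA 1, and the siRNA 2 libraries were at 31.4, 27.9, 31.4 and 31.5. All 8 of these lay above the highest of control. Rb1 rose by 0.34 with siRNA 1 (SE 0.083, adjusted p = 0.00833), a call lost without control replicate 3 (0.0894), and gave 0.24 with siRNA 2 (adjusted p = 0.0606). Ccna2, the S-phase cyclin A, rose by 0.15 with siRNA 2 (adjusted p = 0.0479), which was lost with TMM factors, DESeq2, the replicate block (0.0876), no filter, library size without Gm26917 and only the groups compared, and without any of 7 libraries. Those were control replicates 1 and 3, siRNA 1 replicates 2 and 4 and siRNA 2 replicates 1, 2 and 4 (0.0596 to 0.252). Cdk2, its kinase, was higher by 0.17 with siRNA 2 than with siRNA 1 (adjusted p = 0.0449), which was lost with DESeq2, no filter, library size without Gm26917 and only the groups compared, and without any of control replicate 2, siRNA 1 replicates 1, 3 and 4 or siRNA 2 replicates 1, 2 and 3 (0.0532 to 0.143). The marker sums given above moved with the same groups, though single markers did not all follow them. The ESC sum was lower and the neural sum higher in all siRNA libraries, and the fibroblast sum was higher with siRNA 2. The part of these sums in the results was not tested.

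**Figure D5:**
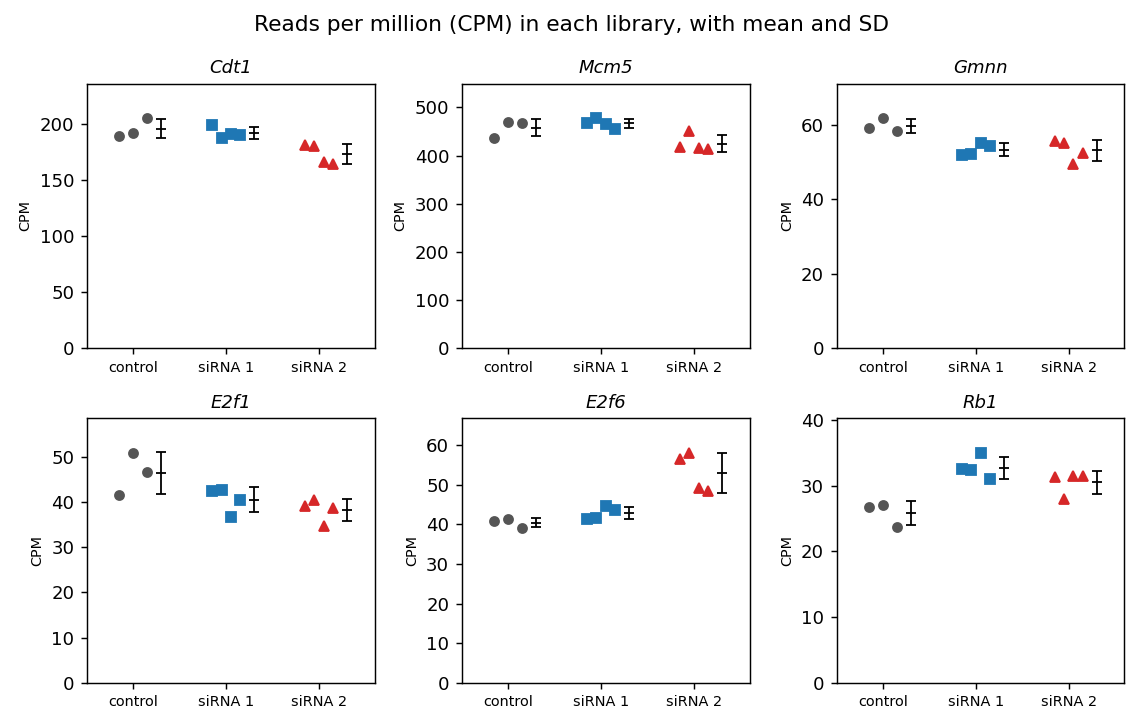
CPM in each library of 3 replication genes (Cdt1, Mcm5, Gmnn) and 3 regulators of the S-phase wave (E2f1, E2f6, Rb1), with mean and SD beside the points (control n = 3, each siRNA n = 4) and axes from 0. Cdt1 and E2f6 stand apart in the siRNA 2 libraries, at 164 to 181 and 48.3 to 58.0 CPM, while for Gmnn and Rb1 the libraries of both siRNAs do not overlap those of control.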

How the data were processed

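The authors deposited whole-number read counts per Ensembl gene for 11 rRNA-depleted, directional libraries. Per the methods and the labels, reads were aligned to GRCm38 with STAR, cleared of duplicates with Picard and counted with featureCounts, though 10 of the 11 files close with totals laid out as by HTSeq-count, so the counter is uncertain. Versions, annotation and strand setting are not given in the sources used here. Rows that name no gene (46.5% to 51.1% of reads in the 10 files that list them) were set aside. Of 54838 identifiers, 54723 matched a symbol in GENCODE vM21, which also gave exon lengths and overlaps.

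Genes above 1 CPM in at least 4 libraries (16073) were tested with edgeR 4.0.16 (R 4.3.3), glmQLFit and glmQLFTest on 3 groups, scaled by total counts, with Benjamini-Hochberg adjustment over all of them. On simulated data for siRNA 2 against control, over 16073 genes, 97 of 100 genes changed 2-fold and 75 of 100 changed by the square root of 2 were called, and 12 of 184 calls were unchanged genes. Smaller changes were not simulated. Alternatives were edgeR's exactTest (the study's test), DESeq2 1.42.0, TMM factors (0.986 to 1.012), 2 other filters, library size without the abundant transcript Gm26917, only the groups compared, the replicate number as a block, and each library left out.

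The members, lists and rules were chosen with earlier results of these data known. Genes called in any contrast, and the gene with the lowest p for each role and siRNA, were named by rule with every library's value. Other members with a fold change were added after their values were seen. Tables were joined in Python 3.11.15 and plots drawn with matplotlib 3.10.9.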

Additional observations from a re-analysis of the deposited data

Results flagged for a closer look

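In 100 groups of 4 libraries (50 genes, 2 siRNAs), Dixon's test set 4 single libraries apart from the other 3, where chance gives about 1 in 20 groups. Mcm5 in siRNA 2 replicate 2 was at 451.2 CPM, with the others at 413 to 418.3. Dbf4, the activating partner of the kinase CDC7, was at 217.3 CPM in siRNA 2 replicate 4, with the others at 188.5 to 190.6. Rfc4 was at 52.83 CPM in siRNA 1 replicate 3, with the others at 43.48 to 44.77. Rfc5 was at 172.6 CPM in siRNA 1 replicate 2, with the others at 162.8 to 163.5.

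The effect of the 2 siRNAs differed, by edgeR's test of siRNA 2 against siRNA 1, for Cdt1 (log2 -0.1514) and Mcm5 (-0.1355) among the 50 genes. It also differed for Tipin (0.1684), Asf1a (0.2686), Samhd1 (0.2383) and Dctpp1 (-0.1897) among other replication genes, and for E2f6 (0.3057) and Cdk2 (0.1745) among S-phase control genes.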

How the results depend on the processing

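Rfc1 kept its direction and its call against control under all 19 alternatives for each siRNA and all 18 run for their mean (56 of 56 values, 0.24 to 0.33), and with siRNA 1 it stayed the 1 member called. With siRNA 2 the members called numbered 4 with TMM factors, 5 with DESeq2 and 1 to 3 with a library left out. The share of all genes called was not computed for the alternatives. For the mean of both they numbered 2 with TMM factors and 2 with a filter at 5 CPM, and between the siRNAs 0 to 3 with a library left out. The median of the members with siRNA 2 was -0.0497 with DESeq2, beside 4.04e-05 for all genes. With edgeR on total counts these medians were -0.021 and 0.029.

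The other replication genes called with siRNA 2 numbered 3 with TMM factors, 3 with DESeq2, 0 with no filter, 0 with the replicate block and 0 to 4 with a library left out. For the mean of both they numbered 1 with TMM factors, 1 with DESeq2 and 0 to 2 with a library left out, and between the siRNAs 2 with DESeq2 and 2 to 5 with a library left out. The S-phase control genes called with siRNA 1 numbered 2 with DESeq2 and 0 to 1 with a library left out. With siRNA 2 they numbered 1 to 3 with a library left out, and for the mean of both 1 with DESeq2 and 0 to 3 with a library left out. Between the siRNAs they numbered 1 with DESeq2, with no filter, without Gm26917 and with only the groups compared, and 1 to 2 with a library left out.

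Same-numbered libraries did not deviate together (mean correlation 0.0024 over 10 pairs, -0.271 to 0.263, beside -0.0008 over 30 other pairs), so the block on replicate number only shares a number. With it the members called numbered 1 with siRNA 1, 2 with siRNA 2 and 2 between the siRNAs, and the S-phase control genes called with siRNA 2 numbered 2, without Ccna2.

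Of 1515 single-gene values under the alternatives, 70 lost a call, 9 gained one and 32 changed sign. The 32 did not pass the test, and on total counts lay farthest from 0 for Rpa3 with siRNA 1 (-0.09) and Rfc3 with siRNA 2 (0.05). With TMM factors and DESeq2 they were -0.00701 and -0.011 for Mcm4, -0.018 and -0.022 for Mcm7 and -0.00107 and -0.00482 for Rpa2 with siRNA 1, and -0.023 and -0.028 for Mcm2 and -0.001205 and -0.00541 for Mcm6 with siRNA 2. Mcm2 with siRNA 2 was -0.00546 without Gm26917, and with the replicate block Mcm7 with siRNA 1 was -0.000164 and Rfc5 with siRNA 2 was 0.00502. With a library left out, the siRNA 1 values ran from -0.073 to 0.020 for Orc2, -0.049 to 0.0090 for Cdt1, -0.021 to 0.037 for Mcm4, -0.0048 to 0.046 for Mcm5, -0.0058 to 0.011 for Mcm7, -0.028 to 0.071 for Rfc4 and -0.16 to 0.028 for Rpa3. The siRNA 2 values ran from -0.027 to 0.022 for Mcm2, -0.0022 to 0.12 for Rfc3 and -0.028 to 0.022 for Rfc5, and the difference between the siRNAs for Rfc1 from -0.018 to 0.020. The cause of these changes was not tested. Depth limits the genes with the fewest reads, Rpa3 and Gins3, whose intervals were the widest.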
